A study of Mus musculus with 8 samples.

Results

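The mitochondrial ribosomal protein genes were taken as the protein-coding mouse genes whose symbols begin with Mrpl or Mrps and a digit. GENCODE release M21 of the mouse genome GRCm38 lists 78 of them, 49 for the large (Mrpl) and 29 for the small (Mrps) subunit, spread over 17 chromosomes. Of these, 77 were found by Ensembl ID among the 16341 genes of the count table, and the large subunit gene Mrpl58 (ENSMUSG00000018858) was not. All 77 passed the filter on low counts and were among the 11717 genes tested. The 5 M21 pseudogenes named after them were not among the genes counted.

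RNA was sequenced from 4T1, a mouse mammary carcinoma line, after magnetic separation on SCA1, a surface protein encoded by Ly6a. The 4T1-Sca1+ and 4T1-Sca1- groups had 4 libraries each, with no further treatment named in the labels. The source label gives parental 4T1 cells, while the protocol label describes a stained tumor and the sort label adds absence of CD45 to the gate in both groups. The labels do not state whether libraries came from separate cultures or sorts, so p-values measure the spread between these libraries, which may be technical.

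The mitochondrial ribosome translates the few messages encoded by the mitochondrial genome, all of which specify subunits of the oxidative phosphorylation complexes. Its ribosomal RNAs come from mitochondrial DNA, but all of its proteins are encoded in the nucleus, made in the cytosol and imported. The small subunit reads the message and the large subunit joins the amino acids. Some of the proteins have bacterial counterparts and others are particular to mitochondria.

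As a check on the group labels, Ly6a followed the sort. Normalized counts, which are read counts divided by the size factor of the library, were 161, 193, 145 and 168 in the 4T1-Sca1+ libraries and 1.91, 4.11, 0 and 1.14 in the 4T1-Sca1- libraries. The groups lay far apart, in the direction of the labels. Total counts per library ran from 13561804 to 16968215, and the 77 genes together took between 0.386% and 0.466% of them. The 4 epithelial markers summed to 2340 to 2532 CPM (counts scaled to the library total) in 4T1-Sca1+ and 2060 to 2140 CPM in 4T1-Sca1- libraries and did not move together. The keratins Krt8 and Krt18 were called higher in 4T1-Sca1+ (log2 fold changes of 0.31 and 0.38), Cdh1, which encodes E-cadherin, was called lower (-0.69), and Epcam was not called (-0.030). Of 9 leukocyte markers counted, 4 could be tested and all 4 were higher in 4T1-Sca1+ (Cd68, Cd74, Csf1r and S100a8). Over all tested genes 31.3% were called higher. The other 5, Ptprc, Cd3e, Itgam, Lyz2 and Cd79a, had at most 10 counts in every library. The summed level of the 9 was 27.2 to 31.8 CPM in 4T1-Sca1+ and 14.8 to 17.5 CPM in 4T1-Sca1- libraries. Ptprc, which encodes CD45, had at most 3.5 normalized counts in any library. The 5 fibroblast markers counted summed to 40.6 to 43.4 CPM against 24.1 to 27.9. Most of this was Pdgfra, with means of 560 and 364 normalized counts. Pdgfra and Col1a1 (47.6 and 28.6) were the only 2 tested and were higher. Col1a2 (4.43 and 4.61), Pdgfrb (6.19 and 0.257) and Dcn (11.4 and 1.06) were not tested. The 3 endothelial markers counted summed to at most 0.464 CPM. Their part in the results below was not tested, and in such bulk libraries fewer cells of a type and less RNA per cell cannot be told apart.

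Most mitochondrial ribosomal protein genes were lower in 4T1-Sca1+ than in 4T1-Sca1- cells, each by a modest amount. With edgeR's quasi-likelihood test and a Benjamini-Hochberg adjusted p under 0.05, 57 of the 77 were lower, 2 were higher and 18 were not called. Over all genes tested, 30.2% were called lower and 31.3% higher. The median log2 fold change, 4T1-Sca1+ over 4T1-Sca1-, was -0.27 for the 77 genes, which corresponds to a level 17% lower, and 0.0074 for all tested genes. The sign was negative in 67 of the 77. Only 6 of the called genes were lower by more than 1.5-fold. In 54 genes every 4T1-Sca1+ library lay below every 4T1-Sca1- library, and in 2 every one lay above, against 27.9% and 26.8% of all tested genes.

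**Figure D1:**
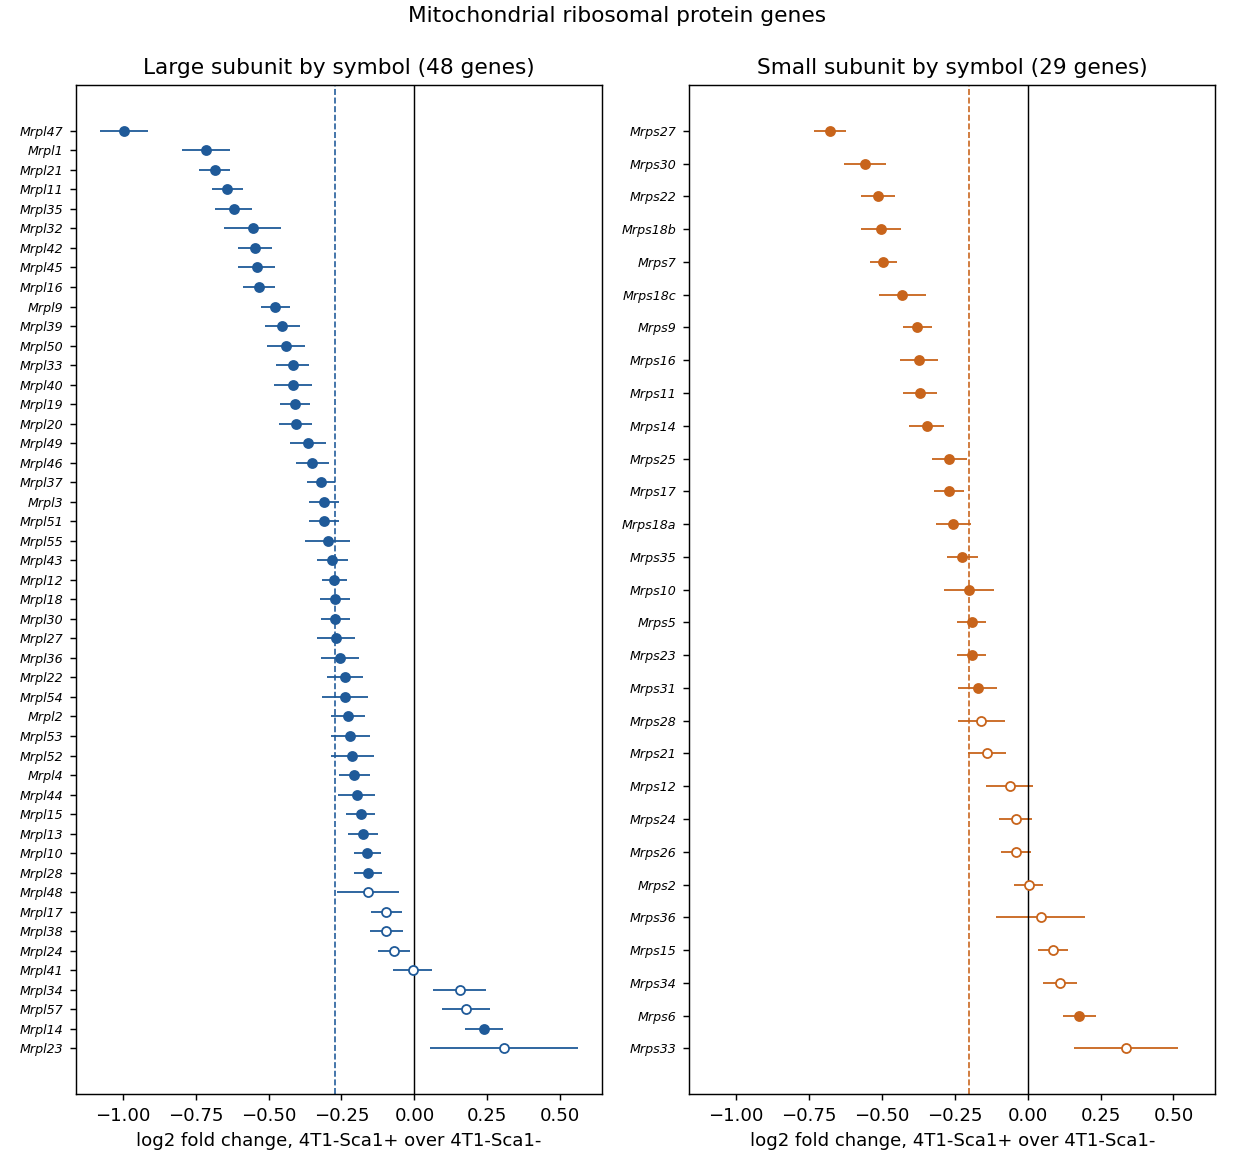
Log2 fold change (4T1-Sca1+ over 4T1-Sca1-) of each mitochondrial ribosomal protein gene with its standard error as a bar, large subunit genes on the left and small subunit genes on the right. Filled points passed an adjusted p of 0.05, open points did not, and the dashed lines mark the medians, -0.27 for the large and -0.20 for the small subunit.

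Both subunits took part. Of the 48 large subunit genes 39 were lower, 1 was higher and 8 were not called, with a median log2 fold change of -0.27. Of the 29 small subunit genes 18 were lower, 1 was higher and 10 were not called, with a median of -0.20. The symbols do not match the particle for every gene. Mrps30 and Mrps18a encode proteins that sit in the large subunit, and Mrps36 encodes a component of the α-ketoglutarate dehydrogenase complex. By place in the particle, 41 of 50 large and 16 of 26 small subunit genes were lower, with medians of -0.27 and -0.20. These counts and medians describe the lists, and the difference between the subunits was not tested.

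The summed level gave the same picture on the CPM scale. For the large subunit genes it was 2660, 2587, 2607 and 2630 in the 4T1-Sca1+ libraries and 3104, 3127, 3162 and 3098 in the 4T1-Sca1- libraries. For the small subunit genes it was 1332, 1269, 1298 and 1262 against 1465, 1448, 1503 and 1459. All 4T1-Sca1+ libraries lay below all 4T1-Sca1- libraries for both subunits. The means were 16.1% lower for the large and 12.2% lower for the small subunit. The ratio of the large to the small sum was 2.00, 2.04, 2.01 and 2.08 in 4T1-Sca1+ and 2.12, 2.16, 2.10 and 2.12 in 4T1-Sca1- libraries. The ranges of this ratio did not overlap, and its means of 2.03 ± 0.0388 and 2.13 ± 0.0237 (SD, n = 4) differed by 4.43%.

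**Figure D2:**
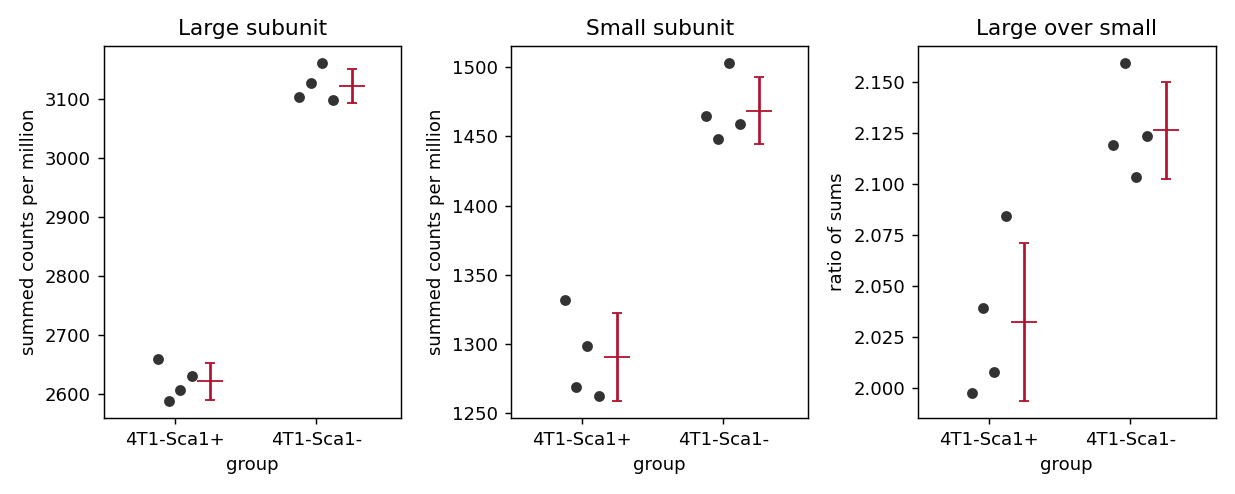
Summed CPM of the large subunit genes (left), of the small subunit genes (middle) and their ratio (right) in each library (points), with the mean and SD of 4 libraries in red. The vertical axes do not start at 0. In all 3 panels the 4T1-Sca1+ points lie below the 4T1-Sca1- points.

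Among large subunit genes with bacterial counterparts, Mrpl47 (ENSMUSG00000037531; chromosome 3, 32725397 to 32737605, minus strand) had the lowest log2 fold change of all members. Its protein belongs to the family of bacterial uL29, near the exit of the peptide tunnel. Normalized counts were 274, 261, 204 and 232 in the 4T1-Sca1+ libraries and 508, 465, 479 and 508 in the 4T1-Sca1- libraries. The groups did not overlap, and the highest 4T1-Sca1+ library stood far below the lowest 4T1-Sca1- library. The log2 fold change was -0.997 ± 0.0821 (SE; edgeR adjusted p = 1.39e-08). Exons of Mrpl47 overlap those of Actl6a and Ndufb5 on the other strand, whose log2 fold changes were -0.13 and -0.28.

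Mrpl1 (ENSMUSG00000029486; chromosome 5, 96209493 to 96266727, plus strand) encodes the protein of the L1 stalk, which moves transfer RNAs out of the ribosome. It had 292, 326, 245 and 290 normalized counts in 4T1-Sca1+ and 519, 430, 479 and 484 in 4T1-Sca1- libraries. The groups were apart, with a log2 fold change of -0.71 ± 0.0832 (SE; edgeR adjusted p = 9.56e-07). Mrpl11 (ENSMUSG00000024902), whose protein lies at the base of the stalk where translation factors bind, had 837, 740, 836 and 824 against 1236, 1308, 1320 and 1233. It was apart in the same direction, with a log2 fold change of -0.64 ± 0.0534 (SE; edgeR adjusted p = 1.61e-08). Mrpl21 (ENSMUSG00000024829) had 641, 622, 583 and 614 against 1014, 948, 1005 and 1023, and its log2 fold change was -0.68. Mrpl35 fell by 0.62 and Mrpl32, whose product is matured by a mitochondrial protease before assembly, by 0.55 on the log2 scale. The groups did not overlap in any of these 3 genes.

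Mrpl12 encodes the stalk protein that recruits translation factors, and its counts were the highest of the 77. It had 3030, 3041, 3132 and 3029 normalized counts in 4T1-Sca1+ and 3626, 3921, 3740 and 3638 in 4T1-Sca1- libraries. The groups did not overlap, although the log2 fold change was only -0.27 ± 0.0425 (SE; edgeR adjusted p = 2.50e-05). Per kilobase of the principal transcript, Mrpl12 was also the highest, with 153 and 187 TMM-scaled CPM. It was followed by Mrpl52 (147 and 172), Mrpl33 (126 and 169) and Mrpl54 (110 and 130). Mrpl33 was apart between the groups, while Mrpl52 and Mrpl54 passed the test with groups that overlapped (adjusted p = 0.0193 and 0.0149). Both lost the call when 4T1-Sca1- replicate 2 was left out, at log2 fold changes of -0.18 and -0.19, and in a limma fit of the deposited normalized values, at -0.23 and -0.26. Mrpl52 also lost it without 4T1-Sca1+ replicate 2, at -0.14, and with scaling by library totals alone, at -0.17, and Mrpl54 lost it without 4T1-Sca1+ replicate 1, at -0.18. Across the 77 genes the log2 fold change had a Spearman correlation of 0.099 with the level per length, as a description over genes of the same libraries.

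In the small subunit, Mrps27 (ENSMUSG00000041632; chromosome 13, 99344786 to 99415562, plus strand) had the lowest log2 fold change. Its product is a mitochondria-specific protein with pentatricopeptide repeats, a motif of RNA-binding proteins. Normalized counts were 552, 523, 561 and 570 in 4T1-Sca1+ and 885, 850, 881 and 945 in 4T1-Sca1- libraries. The groups were far apart compared with their spread, and the log2 fold change was -0.68 ± 0.0553 (SE; edgeR adjusted p = 1.23e-08). Mrps22, another mitochondria-specific protein, had 434, 462, 432 and 453 against 647, 602, 656 and 663. It too was lower in every 4T1-Sca1+ library, by 0.51 on the log2 scale. Mrps7, of a conserved family in the head of the subunit, had 1544, 1531, 1664 and 1476 against 2150, 2292, 2221 and 2169, a log2 fold change of -0.49. Mrps30, counted here as small by its symbol, had 444, 470, 412 and 406 against 680, 572, 699 and 621. Its groups were apart and its log2 fold change was -0.56.

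The 3 homologs of the bacterial S18 family showed log2 fold changes of different size. Mrps18b had -0.50 ± 0.0681, Mrps18c had -0.43 ± 0.0799 and Mrps18a had -0.25 ± 0.0591 (SE). All were called lower (edgeR adjusted p = 5.74e-06, 0.000163 and 0.00120), and none of the groups overlapped. Mrps18a had 856, 794, 870 and 769 normalized counts in 4T1-Sca1+ and 964, 935, 1081 and 979 in 4T1-Sca1- libraries.

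Grouping by origin gave like medians. Of the 30 large subunit genes with bacterial counterparts 25 were lower (median -0.27), and of the 20 mitochondria-specific ones 16 were lower (median -0.30). In the small subunit the counts were 9 of 16 (median -0.20) and 7 of 10 (median -0.21). Of the S18 homologs, Mrps18c was counted among genes with a bacterial counterpart, and Mrps18a and Mrps18b among the mitochondria-specific ones.

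**Figure D3:**
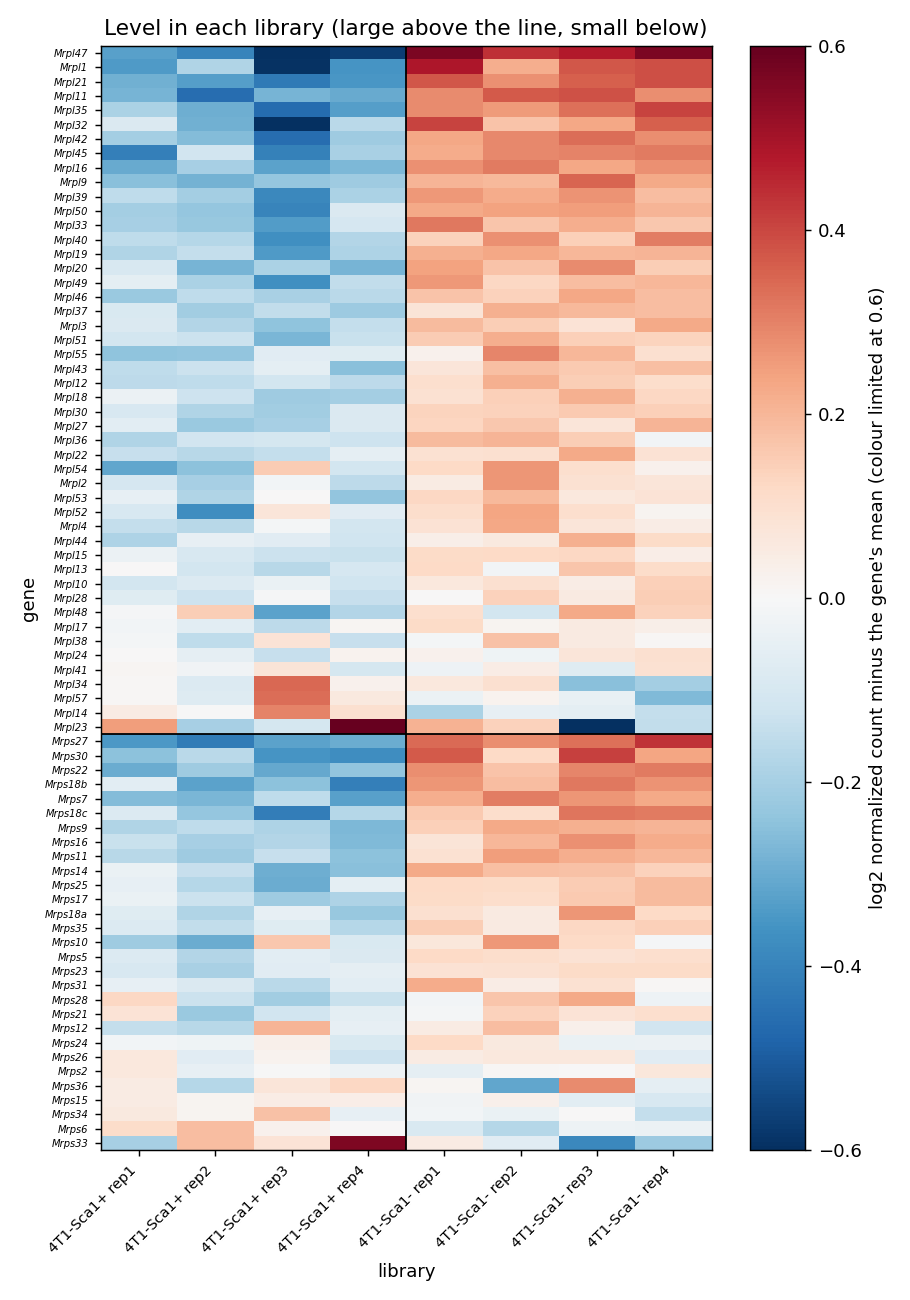
Log2 normalized count of each mitochondrial ribosomal protein gene in each library minus the mean of that gene over 8 libraries, with colour limited at 0.6, large subunit genes above the horizontal line and small below, each ordered by log2 fold change. Most rows are blue in the 4 4T1-Sca1+ columns and red in the 4 4T1-Sca1- columns, and the lowest rows of each block are not.

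The 2 genes called higher were Mrpl14 and Mrps6. Mrpl14, whose protein faces the small subunit, had 746, 722, 888 and 773 normalized counts in 4T1-Sca1+ and 633, 698, 692 and 653 in 4T1-Sca1- libraries. The groups were narrowly apart, with a log2 fold change of 0.24 ± 0.0652 (SE; edgeR adjusted p = 0.00431). With offsets corrected for GC content the value turned to -0.075 and was not called. Mrps6 had 965, 1017, 911 and 894 against 839, 794, 875 and 871, with a log2 fold change of 0.18 ± 0.0565 (SE; edgeR adjusted p = 0.0115). The lowest 4T1-Sca1+ library was only slightly above the highest 4T1-Sca1- library, and the call was lost without 4T1-Sca1+ replicate 2, at 0.14, with GC-corrected offsets, at 0.085, and in the limma fit of the deposited values, at 0.16. Mrps6 shares exon bases on the same strand with Slc5a3, whose log2 fold change was 0.98, and Mrpl14 shares them on the other strand with Tmem63b, at -0.0051.

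The genes not called differed in how precisely they were measured. Mrps2 had 1024, 948, 977 and 957 normalized counts in 4T1-Sca1+ and 944, 984, 980 and 1026 in 4T1-Sca1- libraries, with a log2 fold change of 0.0040 ± 0.050 (SE). Mrpl41 had a log2 fold change of -0.0051, Mrps26 -0.040, Mrps24 -0.042, Mrps12, a protein of the decoding site, -0.062, and Mrpl24 -0.070. Mrpl17 and Mrpl38 stood at -0.096, Mrps21 at -0.14, and Mrps28 and Mrpl48 at -0.16. Mrps15, Mrps34, Mrpl34 and Mrpl57 had positive values of 0.087, 0.11, 0.16 and 0.18 that did not pass the test. In all of these except Mrpl17 the groups overlapped. Mrpl48, at -0.16, had a standard error of 0.108. Mrpl10 had nearly the same log2 fold change (-0.161) with a standard error of 0.0452 and was called lower. Of the 18 genes not called, 8 were called lower with the GC-corrected offsets described further on. Those offsets also raised the share called lower over all genes, from 30.2% to 40.5%.

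Mrps33, Mrps36 and Mrpl23 had few counts. Mrpl23 had 25.6, 18.7, 19.9 and 34.1 normalized counts in 4T1-Sca1+ and 24.8, 23.6, 12.2 and 19.4 in 4T1-Sca1- libraries. Its log2 fold change of 0.31 ± 0.255 (SE) was not distinguishable from 0 at this depth. Mrps33 had 0.34 ± 0.178 and Mrps36 0.045 ± 0.152, again without a call. Near-identical stretches in M21 transcripts of other genes were found for 19 of the 77 genes, these 3 and Mrpl48 among them. The limits were at least 95% identity over at least 200 bases, and such matches are called copies here. They need not be copies of the whole gene, and Mrps26 matched 10 genes, Exoc1 and Hdac1 among them. The genome outside annotated transcripts was not searched. The match of Mrpl23 to its pseudogene was 540 bases at 100% identity, and that of Mrps33 to Gm5776 was 321 bases at 99.7%. How reads matching several places were counted is not given in the sources used here, so the levels of these 19 genes are uncertain. Of the 58 genes without such a copy 46 were lower and 1 was higher, with a median of -0.27.

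The library kit does not mark strand, and 22 of the 77 genes share exon bases with another counted gene. Of the other 55, 42 were lower and none was higher in the same edgeR test, with a median of -0.25. Among the 41 genes with neither an overlap nor a copy, 33 were lower, 23 of 27 in the large and 10 of 14 in the small subunit, and the median was -0.27.

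The log2 fold change moved with GC content. Across the 77 genes its Spearman correlation with the GC content of the longest transcript was 0.33, and it was 0.28 across all tested genes, both as descriptions over genes that share libraries. In 3 bins by GC, 21 of 25, 20 of 26 and 16 of 26 genes were lower from the lowest to the highest bin, with medians of -0.31, -0.27 and -0.21. With GC-corrected offsets 64 of the 77 genes were lower and 1, Mrpl57, was higher. The calls over all 11616 genes of that fit moved in the same direction, to 40.5% lower and 26.5% higher, and their median log2 fold change went from 0.0074 to -0.065. The medians of the bins were then -0.28, -0.34 and -0.42, and that of the 77 genes was -0.34. Of the 57 genes called lower without the correction 56 were called lower with it, the exception being Mrpl15 (-0.18 without and -0.0998 with the correction). Another 8 genes were called lower only with it, among them Mrpl38 (-0.41), Mrps28 (-0.34), Mrps12 (-0.30), Mrps21 (-0.27), Mrps24 (-0.24) and Mrpl24 (-0.11).

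**Figure D4:**
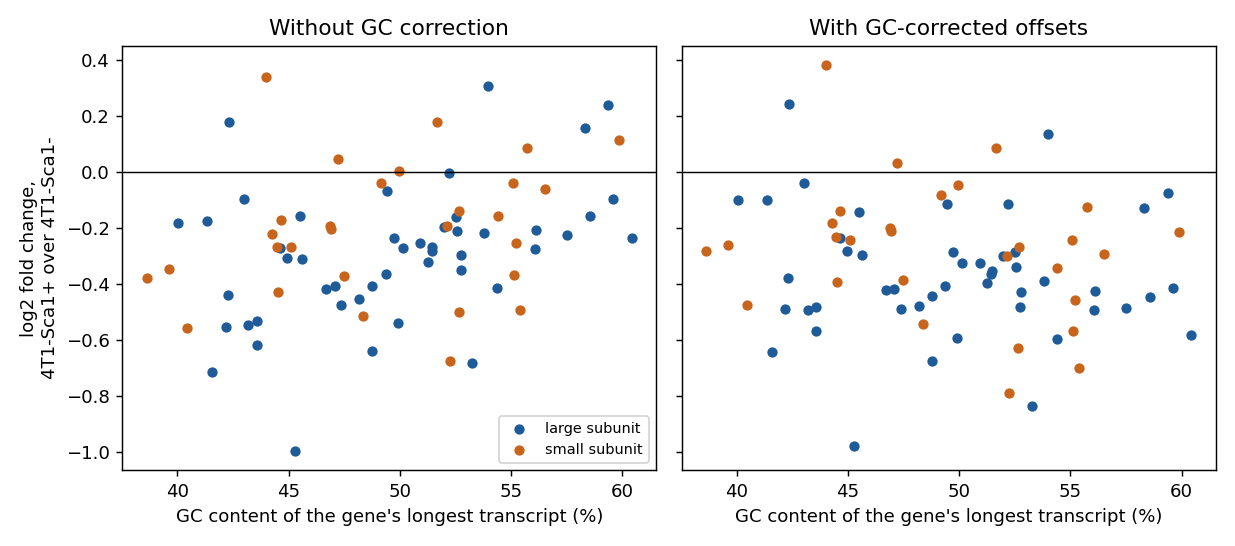
Log2 fold change of each mitochondrial ribosomal protein gene against the GC content of its longest transcript in percent, without (left) and with (right) GC-corrected offsets, coloured by subunit. Most points lie below 0 in both panels, and the 5 members Mrpl14, Mrpl34, Mrps2, Mrps15 and Mrps34 lie above 0 only on the left.

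Some of these genes start head to head with another gene, an arrangement in which the DNA between the starts lies upstream of both. For 26 members a counted gene on the other strand began at most 1000 bases upstream or overlapped the start by at most 200 bases, and 22 of these neighbours were tested. Of the 22 neighbours 10 (45.5%) were lower, 3 were higher and 9 were not called, with a median log2 fold change of -0.16, beside 30.2% lower and 31.3% higher over all tested genes. Of the 22 members beside them 18 were lower. Pairs that moved alike included Mrpl32 (-0.55) with Psma2, a proteasome subunit (-0.51), Mrps18b (-0.50) with Ppp1r10 (-0.51), and Mrpl49 (-0.37) with Fau, which encodes a cytosolic ribosomal protein fused to a ubiquitin-like one (-0.40). Other pairs went opposite ways. Mrpl51 had -0.31 and its neighbour Ncapd2, of the condensin complex, 0.26, while Mrpl2 had -0.23 and Klc4, a kinesin light chain, 0.67. Mrps27 had -0.68 beside Ptcd2 at -0.16, which was not called. Mrpl46 and Mrps11, both members, overlap each other at their starts on chromosome 7 by more than that limit, were not counted among the 26, and had log2 fold changes of -0.35 and -0.37.

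The DNA between the starts of 4 such pairs, chosen after their values were seen to show pairs that moved alike or not, is given from RefSeq (GRCm38.p6), without annotated exon bases. The Mrpl2 stretch runs from the start of Klc4 to the most upstream RefSeq start of Mrpl2. It reads 5′ to 3′ on the strand of the mitochondrial ribosomal protein gene, and capitals mark letters that match a searched motif.
Mrpl32/Psma2, chr13:14613166-14613239, minus strand: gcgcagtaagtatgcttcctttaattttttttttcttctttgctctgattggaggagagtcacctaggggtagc
Mrpl49/Fau, chr19:6057786-6057843, minus strand: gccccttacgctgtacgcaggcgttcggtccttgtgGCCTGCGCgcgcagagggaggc
Mrps27/Ptcd2, chr13:99344706-99344785, plus strand: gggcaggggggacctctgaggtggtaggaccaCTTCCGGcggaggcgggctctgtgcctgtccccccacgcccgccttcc
Mrpl2/Klc4, chr17:46646023-46646220, plus strand: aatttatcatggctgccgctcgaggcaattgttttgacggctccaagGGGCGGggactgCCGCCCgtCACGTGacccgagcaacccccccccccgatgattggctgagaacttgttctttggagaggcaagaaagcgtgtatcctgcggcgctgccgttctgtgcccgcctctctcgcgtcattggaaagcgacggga
The capitals mark the NRF1 core in the Mrpl49 stretch, the ETS motif in the Mrps27 stretch, and the SP1 motif, at both of its matches, and the E-box in the Mrpl2 stretch. The Mrpl32 stretch held none of the motifs.

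RefSeq promoter windows, from 250 bases before to 50 after the start, were found for 68 of the 77 genes, 74 windows in all. On both strands the ETS motif CCGGAAG, bound by GABPA, was in 33.8% of them and in 8.86% of all 32851 windows. The NRF1 core GCGCANGC was in 29.7% against 9.95%, and the YY1 motif AANATGGCG in 13.5% against 2.38%. The SP1 motif GGGCGG was in 52.7% against 35.7%, and the E-box CACGTG, bound by MYC, in 9.46% against 7.15%. Of the 54 windows of genes called lower, 17 held the ETS motif and 15 the NRF1 core, against 8 and 7 of the 20 windows of the other members. The SP1 motif was in 25 of the 54 (46.3%) and in 14 of the 20 (70.0%), the YY1 motif in 9 and 1, and the E-box in 7 and 0. None of these differences was tested. The 32851 windows were taken with no filter on expression, whereas the 77 genes had all passed the low-count filter. These matches describe letters in the windows.

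**Figure D5:**
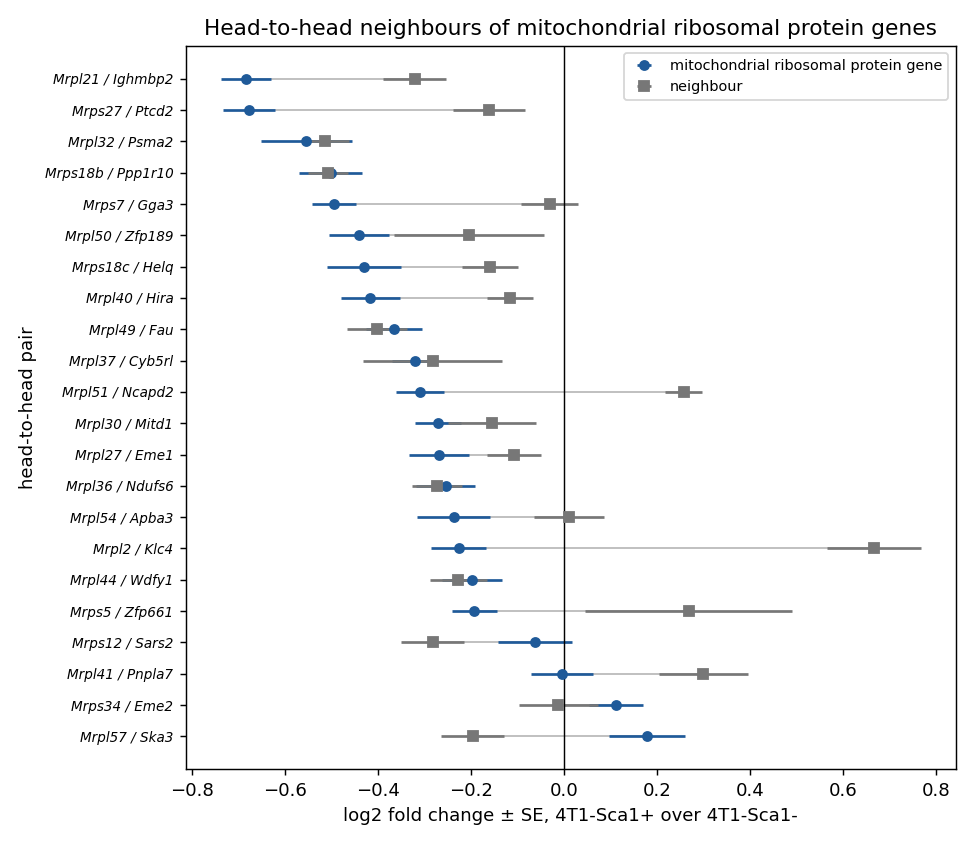
Log2 fold change with its standard error for 22 mitochondrial ribosomal protein genes (circles) and the tested genes that start head to head with them (squares), 1 pair per line, ordered by the member. Mrpl32, Mrps18b and Mrpl49 coincide with their neighbours, whereas Mrpl51 and Mrpl2 lie on the other side of 0 from theirs.

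The factors named for these motifs were measured too. Nrf1 had 888, 856, 770 and 837 normalized counts in 4T1-Sca1+ and 1041, 1040, 1046 and 1156 in 4T1-Sca1- libraries, with no overlap and a log2 fold change of -0.34 ± 0.0573 (SE; edgeR adjusted p = 6.05e-05). Myc had 4099, 4283, 4456 and 4108 against 5127, 5404, 5191 and 5076, again apart, at -0.28. Pprc1, a coactivator related to PGC-1, had a log2 fold change of -0.37. Sp1, added after the other values were seen and not on the list of regulators, was higher in every 4T1-Sca1+ library, at 0.35 ± 0.0574 (SE; edgeR adjusted p = 4.81e-05). Gabpa (0.020), Yy1 (0.025) and Tfam (0.0081), the packaging and transcription factor of mitochondrial DNA, were not called. Gabpb1 (0.18) and Tfb2m (0.23), a mitochondrial transcription factor, were called higher. In all, 3 of the 12 tested regulators of mitochondrial biogenesis were lower and 2 (16.7%) were higher, with a median of 0.014. Both shares lie below those over all tested genes, which were 30.2% and 31.3%.

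Mitoribosomal proteins with other names moved in the same direction as most members. All 4 of the small subunit were lower, with log2 fold changes of -0.60 for Ptcd3, a pentatricopeptide repeat protein, -0.59 for Chchd1, -0.25 for Dap3, a GTP-binding protein also named for cell death, and -0.16 for Aurkaip1. The large subunit protein Gadd45gip1 had -0.18 and was lower. With the 4 added to the genes grouped as small by symbol, 22 of 33 were lower. That grouping still held Mrps30, Mrps18a and Mrps36.

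The other steps of mitochondrial translation were described from lists written from general knowledge, and each share reads against 30.2% lower and 31.3% higher over all tested genes. Of 14 translation factors 6 (42.9%) were lower and 1 (7.14%) was higher (median -0.16). Tufm, the elongation factor that brings transfer RNAs to the ribosome, had 432, 414, 454 and 378 normalized counts in 4T1-Sca1+ and 638, 636, 539 and 604 in 4T1-Sca1- libraries. The groups were apart, with a log2 fold change of -0.52 ± 0.0704 (SE). Mtrf1, of the release factor family, had -0.89, and 2810006K23Rik, also on that list, 0.57.

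Of 22 genes for mitochondrial aminoacyl-tRNA synthesis 14 (63.6%) were lower and 1 (4.55%) was higher (median -0.28). Lars2, for leucine, had a log2 fold change of -0.72 with overlapping groups, since 4T1-Sca1+ replicate 1 stood at 7984 normalized counts and the other 3 at 4111 to 5309. Near-identical copies were not sought for Lars2 or the other genes of these lists. Qrsl1 had -0.47 and Kars, which serves cytosol and mitochondria, -0.41. Of 28 assembly factors 13 (46.4%) were lower and 3 (10.7%) were higher (median -0.15). Among them were Eral1, which binds the small subunit ribosomal RNA (-0.52), and Rpusd4, a pseudouridine synthase (-0.52). Lrpprc, which stabilises mitochondrial messages, was also on that list and lower (-0.39), so the list is wider than assembly alone. No gene of the mitochondrial chromosome was among the genes counted, so the RNAs of the particle and its products were not analysed here.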

How the data were processed

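RNA was extracted with an RNeasy kit and made into libraries with Illumina TruSeq RNA v2, which does not mark strand, and sequenced on a NextSeq 500 (per the labels). The submitters' processing notes name cutadapt 1.16, STAR 2.5.3a and GRCm38. The counting tool, annotation and handling of multiply mapped reads are not given in the sources used here. The authors deposited raw counts per Ensembl gene and a second table, also deposited, of normalized signal, equal to counts divided by 1 DESeq2 size factor per library (relative difference at most 5.39e-15).

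Symbols, positions and GC content came from GENCODE M21. Counts were filtered with filterByExpr, scaled by TMM and tested with edgeR 4.0.16 in R 4.3.3 (quasi-likelihood, two-sided, 8 libraries, no covariate), with Benjamini-Hochberg adjustment over 11717 genes. The standard error was the absolute log2 fold change divided by the square root of F. Near-identical copies were sought with blastn 2.17.0+. Members and lists were chosen with earlier results of these data known. Named genes were, per subunit, those with the 6 lowest and 4 highest log2 fold changes, the 4 highest and 2 lowest levels per length, every gene not called, Mrps18a, Mrps18b, Mrps18c, Mrps30, Mrps36 and Mrpl12, and the 3 largest called changes per pathway list. Head-to-head pairs, overlapping genes and the other members and markers given with values were added after values were seen. The main edgeR fit, DESeq2 and a limma fit were tested on simulated counts. Alternatives were other filters, scalings, DESeq2 1.42.0, limma 3.58.1, a replicate block, GC-corrected offsets, other memberships and leaving out each library.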

Additional observations from a re-analysis of the deposited data

Results flagged for a closer look

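In groups of 4 libraries, a library was singled out when its gap to the nearest other was, as a share of the range of its group, above the 95% critical value of Dixon's test. Of 116 groups examined 8 were singled out, and chance gives about 1 in 20, or 5.80. Mrpl11 had 740 normalized counts in 4T1-Sca1+ replicate 2 against 824 to 837 in the others. Mrpl12 had 3132 in 4T1-Sca1+ replicate 3 against 3029 to 3041. Mrps26 had 1386 in 4T1-Sca1- replicate 4 against 1501 to 1518. Ptcd3 had 961 in 4T1-Sca1+ replicate 3 against 1216 to 1231, and Rpusd4 had 736 in the same library against 816 to 820. In 4T1-Sca1- replicate 4, Mtrf1 had 118 against 106 to 107 and Nrf1 had 1156 against 1040 to 1046. The summed level of all 77 genes was 4665 CPM in 4T1-Sca1- replicate 3 against 4557 to 4575.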

How the results depend on the processing

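The direction of the median and the excess of lower over higher calls held under every alternative run. Lower calls stayed within 1.5 times the main count throughout. With library totals alone 5 members were higher (2 large, 3 small) and the medians of all, large and small subunit genes were -0.23, -0.23 and -0.16. Over all tested genes this setting gave 2984 lower and 4118 higher, with a median of 0.050, against 0.0074 in the main fit. With upper-quartile scaling 4 members were higher (2 and 2), with medians of -0.24, -0.24 and -0.17. The tested genes as a whole were then 3186 lower and 3965 higher, with a median of 0.037. With GC-corrected offsets 1 member was higher (0 small), with medians of -0.34, -0.40 and -0.26. All genes moved too, from 3538 lower and 3668 higher to 4704 and 3073. With limma on log2(value + 1) of the deposited values 1 was higher and 0 of the small subunit, and the same 2 counts held at an adjusted p under 0.01. Without a low-count filter the median of all was -0.29. Without members sharing exon bases 0 were higher, 0 large and 0 small. Without members with a near-identical copy 1 was higher, 0 of them small, and the small subunit median was -0.26. These last 2 were chosen after seeing the data. Beyond the settings' own construction (fewer members, a stricter limit), the cause was not tested.

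Leaving out each library in turn gave 54 to 58 lower and 2 to 3 higher genes (median -0.28 to -0.25), 37 to 40 lower and 1 to 2 higher large (-0.30 to -0.27), and 16 to 19 lower and 0 to 2 higher small subunit genes (-0.24 to -0.17). Same-numbered libraries did not deviate together (correlations of 0.0957, -0.15, -0.0339 and -0.00107). With 4 libraries per group this cannot show whether libraries of the same number shared a culture or sort. With the replicate number as a block 57 genes were lower and 2 higher, with a median of -0.27.

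Of 971 values of 54 named genes under alternatives, 920 kept direction and side of the threshold. Signs turned with GC-corrected offsets for Mrpl34 (-0.13), Mrpl14 (-0.075), Mrps15 (-0.13), Mrps34 (-0.21) and Mrps2 (-0.047), of which Mrps15 and Mrps34 were then called lower. Mrpl41 turned with at least 10 counts in every library (0.0062), library totals (0.038), upper-quartile scaling (0.024) and for 3 of the 8 libraries left out (range -0.037 to 0.026). Mrps2 turned without the filter (-0.012), with DESeq2 size factors (-0.0039), DESeq2 (-0.0088), limma on the deposited table (-0.0098) and for 3 of the 8 libraries left out (range -0.027 to 0.023). Mrps24 (0.0014) and Mrps26 (0.0027) turned with library totals, and Mrps36 (-0.052) without 4T1-Sca1- replicate 2 (range -0.052 to 0.15). Calls changed with no change of sign in 13 named genes. Beside the changes given above and in the results, Mrpl57 was called higher with library totals (0.22), upper-quartile scaling (0.21) and without 4T1-Sca1+ replicate 2 (0.23), Mrps34 with the first (0.15) and second (0.14) of these, and Mrps15 with library totals (0.13). Without 4T1-Sca1+ replicate 1 Mrps33 was called higher (0.45) and Mrps21 (-0.20) and Mrps28 (-0.24) lower, and without 4T1-Sca1+ replicate 3 Mrpl38 (-0.15) and Mrps12 (-0.15) were. Mrps21 was also called lower without the filter (-0.16) and without 4T1-Sca1- replicate 1 (-0.18). The 3 genes with the fewest counts, Mrpl23, Mrps33 and Mrps36, had the largest errors of the 77.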
